A study of Rattus norvegicus with 6 samples.

Results

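The genes described here encode the pore-forming and auxiliary subunits of voltage-gated sodium and calcium channels. They were taken from the counted gene table by name (Scn followed by a digit, or Cacna, Cacnb or Cacng followed by a digit), which gave 40 of 32883 genes, 14 of them sodium and 26 calcium channel genes. The cells were oligodendrocyte precursor cells (OPCs), the glial cells that divide and give rise to myelinating oligodendrocytes, cultured from the cortices of Sprague Dawley rats at postnatal day 0, with 2 rats named per culture. The DMSO group received solvent and the ZJU-37 group received 5 µM ZJU-37, an inhibitor of the kinase RIPK1, for 36 h by the sample labels, whereas the study's methods give a shorter time. Each group has 3 libraries of poly-A RNA, described once as biological repeats and once as plate wells, so that p-values measure the spread between these libraries only. The cells of both groups were purified by shaking, which in the study's methods includes a first step to remove microglia, and no sort by cell markers is described.

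Voltage-gated sodium channels open on depolarization and carry the fast inward current of the action potential. Their α subunit forms the pore, and the small β subunits bind alongside it and act in gating and cell adhesion. In voltage-gated calcium channels the α1 subunit forms the pore, the intracellular β subunit and the extracellular α2δ subunit bring it to the membrane, and calcium entry through the pore acts as a second messenger. The γ genes carry a channel name by homology, but most of them encode transmembrane AMPA receptor regulatory proteins (TARPs), which traffic and gate AMPA-type glutamate receptors. OPCs are known to carry voltage-gated sodium and calcium channels and AMPA receptors and to receive synapses from neurons, and these currents are known to decline as the cells differentiate.

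Library totals ran from 13935865 to 24097927 counts, of which the 40 genes together took between 0.0687% and 0.116%. Levels are given as CPM, counts scaled to library size after TMM normalization, and levels of different genes are compared only as CPM per kilobase of the listed gene length. At these depths 3 counts, the limit that a count of 0 allows, correspond to between 0.124 and 0.219 CPM, counting error only. After the filter on low counts 33 of the 40 genes were tested among 14670 genes in all, with edgeR's quasi-likelihood test and Benjamini-Hochberg adjustment over all of these. The same-numbered libraries of the 2 groups deviated together, so a fit with the replicate number as a block is given beside the members' calls that it changes, and as counts for the other gene lists.

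ZJU-37 raised 3 of the 33 tested genes and lowered 1. Cacna1h and Cacna1b, which encode the pores of a T-type and an N-type calcium channel, rose by log2 fold changes of 0.78 and 0.72, and Cacng8, a TARP gene, rose by 0.95. Cacna2d2, an α2δ subunit gene, fell by 0.63 on the log2 scale. The 3 higher genes were 9.09% of the members, against 9.43% of all tested genes called higher, and the 1 lower gene was 3.03%, against 5.58% of all tested genes called lower. With the replicate block 12 members were higher and 3 lower, 36.4% and 9.09% of the 33, against 16.2% and 15.9% of all tested genes in that fit. No sodium channel gene was called without the block, and 5 of 12 were called higher with it. At an unadjusted p-value under 0.05 there were 3 of these 12 (edgeR, against 28.7% of all tested genes), and DESeq2 called Scn1a and Scn3a. In 7 of the 33 genes every ZJU-37 library lay above every DMSO library, 21.2% against 19.0% of all tested genes, and in 1 every ZJU-37 library lay below, 3.03% against 16.2%. The median log2 fold change of the 33 genes was 0.17 and that of all tested genes -0.03.

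**Figure D1:**
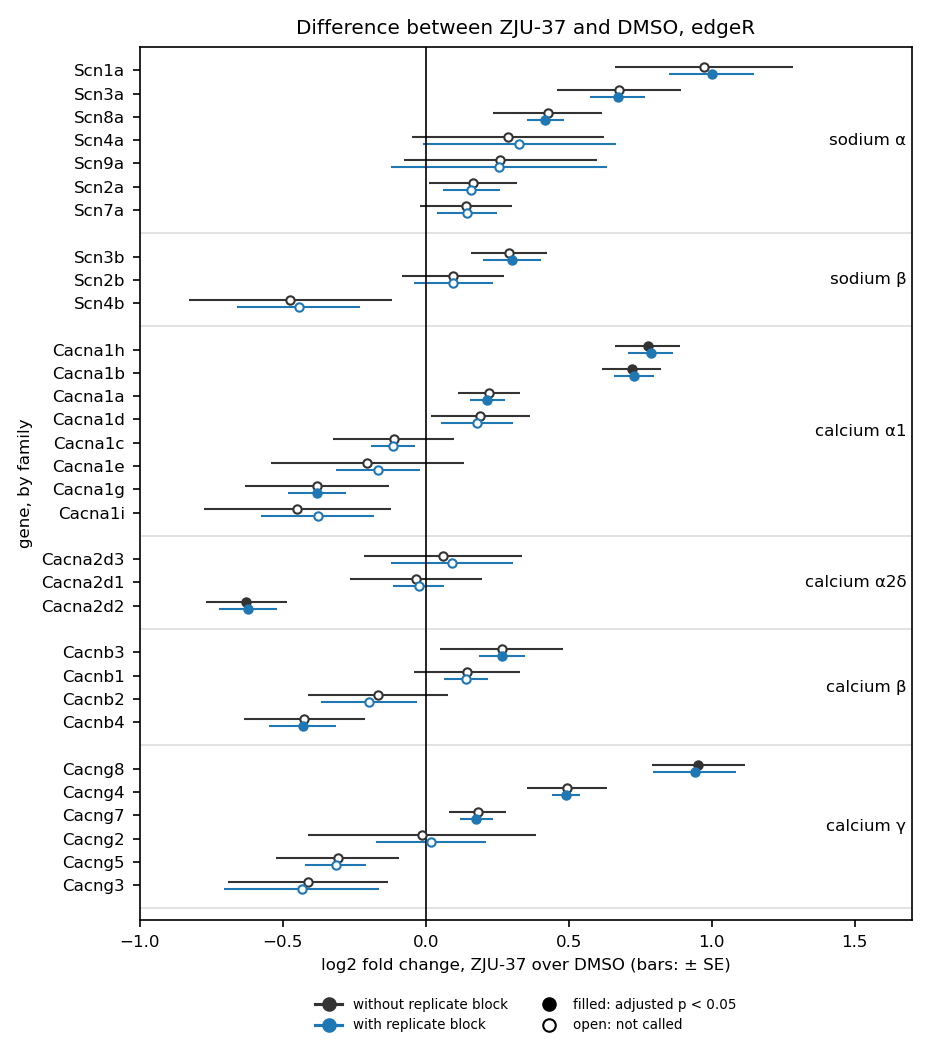
Log2 fold change of 31 tested genes between ZJU-37 and DMSO, by family, with bars for ± 1 standard error (n = 3 libraries per group). Black is the fit without and blue the fit with the replicate block, filled where the adjusted p-value was under 0.05. The 7 sodium α genes drawn lie right of 0, from 0.14 to 0.97, whereas the calcium channel genes lie on both sides, from -0.63 to 0.95.

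For the called genes that have an entry in the RefSeq promoter table (Cacna1b, Cacng8 and Cacna2d2), the 250 bases before the annotated start are shown, since they are the sequences next to the genes that moved. Coordinates are those of GRCr8 (Cacna1b chr3:27944286-27944535, minus strand, Cacng8 chr1:74691004-74691253, minus strand, and Cacna2d2 chr8:116950856-116951105, plus strand), read 5′ to 3′ in the direction of the gene, with the GC box letters GGGCGG in capitals on either strand.
Cacna1b: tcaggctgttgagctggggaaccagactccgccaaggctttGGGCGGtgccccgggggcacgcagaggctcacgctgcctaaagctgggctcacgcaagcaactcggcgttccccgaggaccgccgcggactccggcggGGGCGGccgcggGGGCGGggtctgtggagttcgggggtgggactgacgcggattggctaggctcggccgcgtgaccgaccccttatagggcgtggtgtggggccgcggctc
Cacng8: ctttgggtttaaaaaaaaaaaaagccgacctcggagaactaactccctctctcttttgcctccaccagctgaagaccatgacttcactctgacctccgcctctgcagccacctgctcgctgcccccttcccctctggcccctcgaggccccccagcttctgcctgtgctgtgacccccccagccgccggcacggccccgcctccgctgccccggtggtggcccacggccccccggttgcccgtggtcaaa
Cacna2d2: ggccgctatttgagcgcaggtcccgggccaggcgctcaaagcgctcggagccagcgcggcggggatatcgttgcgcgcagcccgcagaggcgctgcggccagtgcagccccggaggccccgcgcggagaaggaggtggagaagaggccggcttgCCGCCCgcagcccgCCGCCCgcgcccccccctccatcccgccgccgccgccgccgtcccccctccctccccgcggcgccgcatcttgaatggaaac
The windows were 72%, 64.8% and 76.8% G or C, with 28, 14 and 36 CG dinucleotides, against medians of 51.2% and 5 over 33469 windows of this length. Windows of members that were not called ran from 38.4% (Cacng2, 5 CG) to 88.8% (Cacna1d, 56 CG). Windows rich in G and C were therefore not particular to the called genes. The GC box occurred 3 times before Cacna1b, 0 times before Cacng8 and 2 times before Cacna2d2, and in 30.5% of all windows. The E-box letters CANNTG occurred 2 times before Cacng8 and 0 times before the others, against 65.5% of all windows, and the TATA box letters TATAAA, present in 12.9% of all windows, were in none of the 3. Of the 40 genes, 27 have an entry in this table.

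Calcium channel pores were led by Cacna1h. Cacna1h encodes CaV3.2, a T-type channel that opens at small depolarizations. With DMSO it had 69.3, 57.7 and 50.6 CPM, and with ZJU-37 102, 103 and 98.4 CPM (here and below in the order of replicates 1, 2 and 3). The groups did not overlap, and the ZJU-37 libraries lay closer together than the DMSO libraries. On average it rose from 59.2 ± 9.46 to 101 ± 2.54 CPM (SD, n = 3 libraries each), a 1.71-fold difference (log2 fold change 0.78, SE 0.11, adjusted p = 0.00517, edgeR, and 1.04e-04 with the block). The span of Cacna1h (chromosome 10, 14730941 to 14788617, minus strand, in the table's coordinates, whose genome build is not named) overlaps that of Tpsg1, which had 51 counts in all against 9321 for Cacna1h.

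Cacna1b encodes CaV2.2, the N-type channel known for triggering transmitter release. It had 47.6, 36.3 and 41.0 CPM with DMSO and 70.7, 66.4 and 68.5 CPM with ZJU-37. Here too every treated library lay above every control library. Mean levels were 41.7 ± 5.68 and 68.5 ± 2.11 CPM (SD, n = 3 libraries each), a 1.65-fold difference (log2 fold change 0.72, SE 0.10, adjusted p = 0.00468, edgeR, and 4.59e-05 with the block). Cacna1b is encoded on the minus strand of chromosome 3 (1740024 to 1924827). When any 1 of the 6 libraries was dropped, Cacna1h stayed between 0.67 and 0.90 and Cacna1b between 0.63 and 0.83 on the log2 scale, with adjusted p-values of at most 0.0290 and 0.0257 (edgeR). With both libraries of replicate 2 or of replicate 3 left out, which leaves 2 against 2, both genes kept their sign at adjusted p-values between 0.0501 and 0.0977.

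The other 2 genes of the CaV2 group did not pass the test without the block. Cacna1a encodes CaV2.1, the P/Q-type channel of nerve terminals, and had 47.3, 40.4 and 44.4 CPM with DMSO and 57.6, 44.8 and 51.5 CPM with ZJU-37. Its groups overlapped, and the log2 fold change of 0.22 (SE 0.11) did not pass without the block (adjusted p = 0.245, edgeR) but passed with it (adjusted p = 0.0234, edgeR). Cacna1e, the R-type CaV2.3 gene, ran from 5.65 to 13.3 CPM with DMSO and from 6.64 to 10.9 CPM with ZJU-37 (log2 fold change -0.20, SE 0.34). Of the 3 CaV2 genes Cacna1b alone was called without the block, and its difference from the change of Cacna1a was not tested.

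The other 2 T-type genes lay on the opposite side of 0 from Cacna1h. Cacna1g, for CaV3.1, had 19.4, 11.6 and 13.7 CPM with DMSO and 14.9, 9.46 and 9.96 CPM with ZJU-37. Each ZJU-37 library was below the DMSO library of the same number, although the groups overlapped (log2 fold change -0.38, SE 0.25, adjusted p = 0.392, and 0.0186 with the block, edgeR). Cacna1i, for CaV3.3, had 10.5, 4.12 and 7.43 CPM with DMSO and 5.79, 4.61 and 5.66 CPM with ZJU-37. It was not called in either fit (log2 fold change -0.45, SE 0.33, adjusted p = 0.440, and 0.182 with the block, edgeR), and the table lists it as a processed transcript. The difference between the T-type genes was not tested in a model. Within the CaV1 (L-type) group, Cacna1c had 27.4 ± 6.00 and 25.4 ± 5.71 CPM and Cacna1d 14.4 ± 1.72 and 16.4 ± 3.36 CPM with DMSO and ZJU-37 (SD, n = 3 libraries each). These long-lasting channels, which couple calcium entry to transcription, were not called in either fit (adjusted p = 0.781 and 0.539 without and 0.294 and 0.313 with the block, edgeR).

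The make-up of the pore genes moved with these changes. As a share of the summed CPM per kilobase of the 10 α1 genes, Cacna1h took 28.7%, 32.3% and 26.0% with DMSO and 34.9%, 41.1% and 37.7% with ZJU-37. Cacna1b took 16.1%, 16.6% and 17.2% with DMSO and 19.7%, 21.6% and 21.4% with ZJU-37. The share of Cacna1c was 13.1% ± 1.12 with DMSO and 9.24% ± 1.32 with ZJU-37, and that of Cacna1g 7.37% ± 0.803 and 4.33% ± 0.774 (SD, n = 3 libraries each), without overlap of the groups in either gene. A share falls when other members rise, so these values do not show that Cacna1c itself changed. The summed level of the 10 genes was 30.7, 22.7 and 24.7 CPM per kilobase with DMSO and 37.1, 31.9 and 33.2 with ZJU-37.

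**Figure D2:**
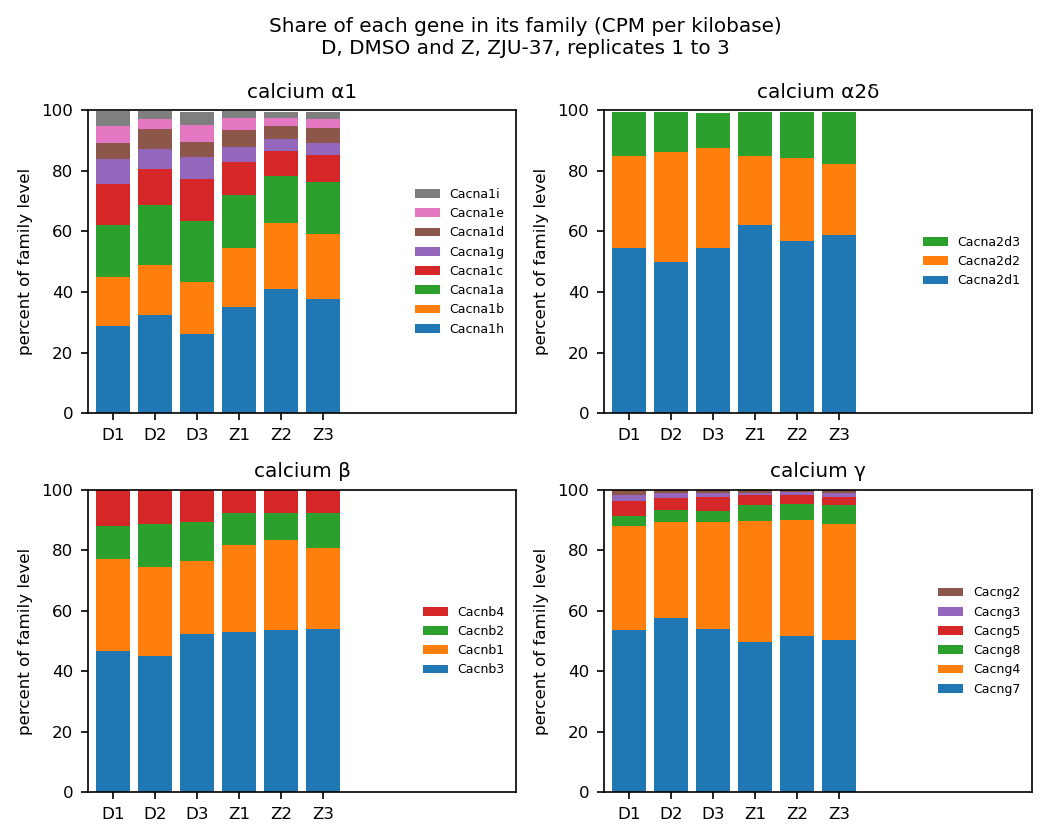
Share of each gene in the summed CPM per kilobase of its calcium channel family, as stacked bars per library, for DMSO (D1 to D3) and ZJU-37 (Z1 to Z3), with genes under 1% on average left out. Cacna1h grows from between 26.0% and 32.3% to between 34.9% and 41.1% of the calcium α1 genes, and Cacng7 and Cacng4 fill most of the γ bars in every library.

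Of the remaining α1 genes, the muscle gene Cacna1s (CaV1.1) and the retinal gene Cacna1f (CaV1.4) were left out of the test for low counts. Cacna1s had 2, 2 and 6 counts with DMSO and 11, 9 and 11 with ZJU-37. The groups did not overlap, but without a filter on low counts the log2 fold change of 1.3 had an adjusted p-value of 0.224 (edgeR). Cacna1f had between 1 and 13 counts in the 6 libraries.

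Among the α2δ genes Cacna2d1 was the most abundant and Cacna2d2 changed. Both encode extracellular subunits that raise the number of channels at the membrane and bind gabapentin. Cacna2d2 (chromosome 8, 116154736 to 116284985, plus strand) had 17.8, 13.8 and 13.9 CPM with DMSO and 10.8, 9.21 and 9.47 CPM with ZJU-37. It was the only tested member with every ZJU-37 library below every DMSO library. The mean fell from 15.2 ± 2.3 to 9.81 ± 0.829 CPM (SD, n = 3 libraries each; log2 fold change -0.63, SE 0.14, adjusted p = 0.0286, edgeR, and 0.00157 with the block). The call was lost in 5 of the 6 fits with 1 library left out: without DMSO replicate 1, 2 or 3 or ZJU-37 replicate 2 or 3 the adjusted p-value passed 0.05, up to 0.113, with log2 fold changes between -0.69 and -0.50 over the 6 fits.

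Cacna2d1 had 27.6, 16.4 and 19.5 CPM with DMSO and 25.0, 16.5 and 20.4 CPM with ZJU-37. Within each group replicate 1 was highest and replicate 2 lowest, and the log2 fold change was -0.03 (SE 0.23, adjusted p = 0.943, and 0.864 with the block, edgeR). Cacna2d3 had between 3.24 and 5.92 CPM in the 6 libraries (log2 fold change 0.06, SE 0.28, adjusted p = 0.915, edgeR). Cacna2d4 was not tested, with 3 to 6 counts per library. As a share of the family, Cacna2d2 took 33.2% ± 2.93 with DMSO and 24.5% ± 2.33 with ZJU-37, and Cacna2d1 53.1% ± 2.63 and 59.2% ± 2.63 (SD, n = 3 libraries each).

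The 4 genes of the intracellular calcium channel β subunits, which bind the α1 subunit and aid its transport, were all tested and none was called without the block. Cacnb3, the most abundant, had 31.6, 21.8 and 34.7 CPM with DMSO and 41.9, 27.7 and 36.4 CPM with ZJU-37. The groups overlapped but each pair showed a higher ZJU-37 value, by 0.40, 0.34 and 0.07 on the log2 scale in the pairs of replicate 1, 2 and 3 (log2 fold change 0.27, SE 0.22, adjusted p = 0.492, and 0.0311 with the block, edgeR). Cacnb4 had 12.2, 8.30 and 10.5 CPM with DMSO and 9.30, 6.06 and 7.73 CPM with ZJU-37. It was lower in each pair (-0.39, -0.45 and -0.44 on the log2 scale, adjusted p = 0.250 without and 0.0203 with the block, edgeR. Its share of the β genes was 11.3% ± 0.756 with DMSO and 7.78% ± 0.115 with ZJU-37 (SD, n = 3 libraries each). Cacnb1 and Cacnb2 had log2 fold changes of 0.14 (SE 0.19) and -0.17 (SE 0.24) and were not called in either fit (adjusted p = 0.671 and 0.714 without and 0.203 and 0.410 with the block, edgeR).

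The γ genes held the most abundant members of all. Cacng7 and Cacng4, both TARP genes, reached 72.7 and 50.9 CPM per kilobase over the 6 libraries, above 91.7% and 87.5% of the tested genes, whose median was 11.5. The next of the 33 genes, Cacnb3, had 12.8 CPM per kilobase. Cacng4 (chromosome 10, 95951234 to 96015499, minus strand) had 185, 143 and 169 CPM with DMSO and 270, 198 and 232 CPM with ZJU-37. The groups did not overlap, and the 3 pairs differed by 0.54, 0.47 and 0.46 on the log2 scale. The log2 fold change of 0.49 (SE 0.14) had an adjusted p-value of 0.0609 without the block and 6.41e-05 with it (edgeR). DESeq2 called Cacng4 (adjusted p = 0.0153). With 1 library left out the adjusted p-value ran from 0.0301, without ZJU-37 replicate 2, to 0.164, and the other 5 fits did not pass (edgeR). Cacng7 had 152, 137 and 136 CPM with DMSO and 178, 141 and 162 CPM with ZJU-37, a smaller difference with overlapping groups (log2 fold change 0.18, SE 0.10, adjusted p = 0.290, and 0.0397 with the block, edgeR).

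Cacng8, the gene of TARP γ-8, showed the largest log2 fold change of the γ genes. Its level was 5.70, 5.65 and 5.42 CPM with DMSO and 11.3, 8.78 and 12.4 CPM with ZJU-37. All 3 DMSO libraries lay close together and below every ZJU-37 library. The mean level went from 5.59 ± 0.151 to 10.8 ± 1.84 CPM (SD, n = 3 libraries each), a 1.94-fold difference (log2 fold change 0.95, SE 0.16, adjusted p = 0.00977, edgeR, and 9.65e-04 with the block). The call held with each single library left out (adjusted p of at most 0.0428, edgeR) and was lost, at 0.140, with both libraries of replicate 3 left out. Cacng8 is a minus strand gene of chromosome 1 (64330106 to 64350338), 24.3 kb from Cacng7 and 8.87 kb from Cacng6. The latter, a γ gene that is not a TARP, had 0 to 8 counts per library and was not tested. In a second cluster on chromosome 10, Cacng4 lies 16.9 kb from Cacng1, the skeletal muscle γ gene, which had 4 counts in all 6 libraries together, and 108 kb from Cacng5.

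The remaining TARP genes did not pass the test. Cacng5 had 17.1, 11.4 and 13.8 CPM with DMSO and 14.5, 9.84 and 9.80 CPM with ZJU-37. It was lower in each pair but not called (log2 fold change -0.31, SE 0.22, adjusted p = 0.417 without and 0.0508 with the block, edgeR). Cacng2 (stargazin) and Cacng3 had between 2.16 and 7.16 CPM, with log2 fold changes of -0.01 (SE 0.40) and -0.41 (SE 0.28). Whether the TARP genes differ from one another in their response was not tested.

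**Figure D3:**
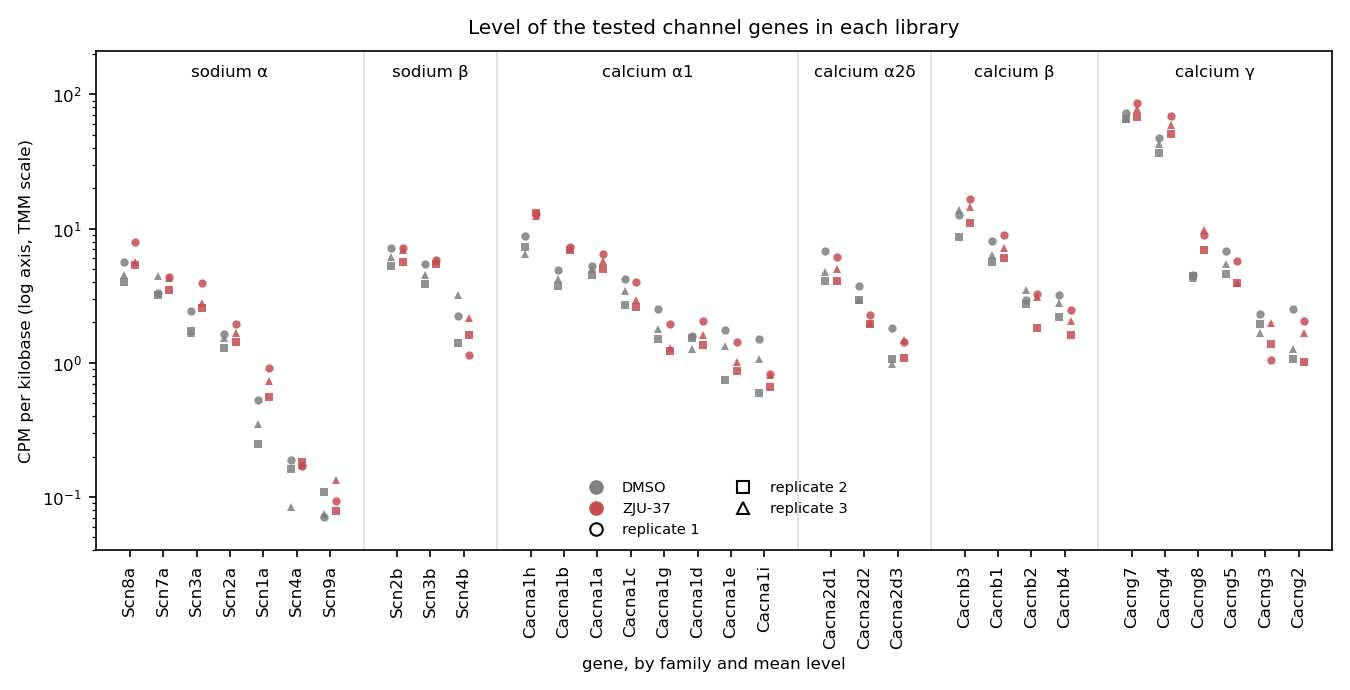
Level of 31 tested genes in each library, as CPM per kilobase of gene length on a log axis, grouped by family and ordered by mean level. Grey is DMSO, red is ZJU-37, and the marker shape gives the replicate number. Cacng7 and Cacng4 lie above all other genes in every library, and the lowest sodium α genes drawn, Scn1a, Scn4a and Scn9a, lie below 1 CPM per kilobase in every library.

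Sodium channel pores were led by Scn8a. Scn8a encodes NaV1.6, the main channel of mature axon initial segments and nodes of Ranvier. It had 38.7, 27.2 and 30.7 CPM with DMSO and 54.1, 36.8 and 38.9 CPM with ZJU-37. The groups overlapped, since DMSO replicate 1 exceeded ZJU-37 replicate 2, but the ZJU-37 value was higher in each pair. The log2 fold change was 0.43 (SE 0.19, adjusted p = 0.202 without the block, and 9.63e-04 with it, edgeR).

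Scn3a and Scn1a showed the larger differences among the sodium α genes. Scn3a encodes NaV1.3, the channel of the embryonic and newborn brain, and had 16.7, 11.7 and 11.3 CPM with DMSO and 26.7, 17.4 and 19.1 CPM with ZJU-37. Scn1a encodes NaV1.1, known from inhibitory neurons, and had 6.28, 2.94 and 4.14 CPM with DMSO and 10.8, 6.64 and 8.64 CPM with ZJU-37. In both genes every ZJU-37 library lay above every DMSO library. Scn3a had a log2 fold change of 0.68 (SE 0.22, adjusted p = 0.0902, and 5.71e-04 with the block, edgeR). For Scn1a it was 0.97 (SE 0.31, adjusted p = 0.0873, and 8.44e-04 with the block, edgeR), on 52 to 209 counts per library. DESeq2 called both. With 1 library left out, the adjusted p-value of Scn1a ran from 0.0440, without DMSO replicate 1, to 0.219, and the other 5 fits did not pass (edgeR).

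Scn2a, for NaV1.2, the channel of immature axons, had 14.4, 11.4 and 13.6 CPM with DMSO and 17.1, 12.5 and 14.6 CPM with ZJU-37. Its pairs differed by 0.25, 0.13 and 0.10 on the log2 scale, and it was not called in either fit (log2 fold change 0.17, SE 0.15, adjusted p = 0.545, and 0.252 with the block, edgeR). Scn2a lies between the more changed genes of one cluster on chromosome 3, 44.7 kb from Scn3a and 560 kb from Scn1a, and Scn9a and Scn7a follow within the same cluster. Scn7a encodes NaX, a sodium level sensor that is not gated by voltage, and had 17, 16.3 and 22.7 CPM with DMSO and 22.3, 17.7 and 21.8 CPM with ZJU-37 (log2 fold change 0.14, SE 0.16). It ranked next to Scn8a in level, at 3.84 against 5.51 CPM per kilobase. In DMSO replicate 3 Scn7a and Scn8a were nearly equal, with 33.0% and 33.3% of the family level.

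Sodium channel genes known from muscle and sensory neurons were low or at the limit of detection. The skeletal muscle gene Scn4a and the sensory neuron gene Scn9a had 11 to 29 and 9 to 30 counts per library. Scn10a had 1 count in the 6 libraries together and Scn11a 6, and neither was tested. Over the 8 tested sodium α genes the log2 fold changes were all above 0, with a median of 0.29, and stayed above 0 with library size only, DESeq2 size factors or upper quartile scaling. Of all tested genes, 46.0% had a log2 fold change above 0.

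No sodium β gene passed the test without the block, and 2 of 4 did with it. Scn3b, for β3, the subunit of the developing brain, had 21.3, 15.1 and 17.5 CPM with DMSO and 22.6, 21.2 and 22.1 CPM with ZJU-37. The log2 difference was 0.08 in the pair of replicate 1 and 0.48 and 0.34 in the others (adjusted p = 0.211, and 0.0469 with the block, edgeR).

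Scn2b and Scn4b encode the β2 and β4 subunits, which are joined to the pore by a disulfide bond. Scn2b had between 5.42 and 7.38 CPM with DMSO and between 5.82 and 7.46 CPM with ZJU-37 (log2 fold change 0.10, SE 0.18, adjusted p = 0.776, edgeR). Scn4b was the only one of the 12 tested sodium channel genes with a negative log2 fold change, -0.47 (SE 0.35, adjusted p = 0.452, and 0.164 with the block, edgeR). It had 9.50, 5.99 and 13.8 CPM with DMSO and 4.87, 6.94 and 9.22 CPM with ZJU-37, and the pair of replicate 2 had the opposite sign to the others. Its share of the β genes was 9.71%, 7.59% and 13.2% with DMSO and 4.44%, 6.81% and 7.57% with ZJU-37.

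Most of the 33 genes were highest in the same replicate number of both groups. DMSO replicate 1 was the highest DMSO library in 26 of them (78.8%, against 44.4% of all tested genes), and ZJU-37 replicate 1 the highest ZJU-37 library in 24 (72.7%, against 39.5%). The summed CPM of 15 neuron markers was 1602, 1127 and 1317 with DMSO and 1463, 1022 and 1208 with ZJU-37, in both groups highest in replicate 1 and lowest in replicate 2. The summed CPM of 11 microglia markers was lowest in replicate 1 of both groups (2182 and 1572) and highest in replicate 2 (3755 and 3209). The summed level of the OPC markers was highest in replicate 1 of both groups as well (5218, 4571 and 4471 CPM with DMSO and 6424, 4652 and 5147 CPM with ZJU-37). Astrocyte markers (1707 and 1394 CPM) and vascular and fibroblast markers (93.8 and 71.5 CPM) were instead highest in replicate 3 of both groups. Mature oligodendrocyte markers were highest in replicate 1 with DMSO (24650 CPM) and in replicate 2 with ZJU-37 (10260 CPM). The part of any of these cells in the channel values was not tested. Within the pairs, 16 of the 33 genes were higher with ZJU-37 in all 3 (48.5%, against 28.4% of all tested genes) and 5 lower in all 3 (15.2%, against 33.3%). All 12 genes called higher with the block were among the 16, and all 3 called lower were among the 5. The block fit tests these same within-pair differences, so this overlap follows largely from the call and is no further support.

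**Figure D4:**
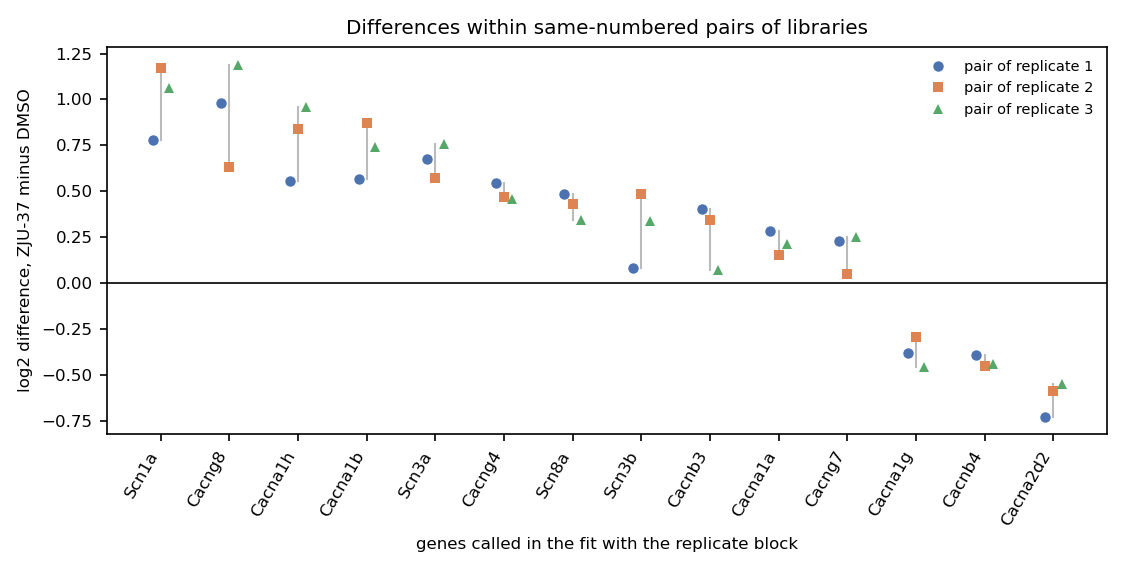
Log2 difference between ZJU-37 and DMSO within each same-numbered pair of libraries, for 14 genes called in the fit with the replicate block, ordered by their log2 fold change. Grey lines join the 3 pairs of a gene. The 11 higher genes drawn lie above 0 in every pair, closest to it for Cacng7 in the pair of replicate 2 (0.05), and the 3 lower genes lie below 0 in every pair. The genes were chosen by a fit of these differences, so their common sign follows largely from that choice.

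Markers of other cell types were examined beside these values, because several channel genes are known from neurons. The labelled cell type was checked with 10 OPC markers, whose summed level lay between 4471 and 5218 CPM with DMSO and between 4652 and 6424 CPM with ZJU-37, of which 4 (Pdgfra, Cspg4, Olig1 and Ptprz1) rose and 4 (Sox10, Gpr17, Nkx2-2 and Vcan) fell, in both fits. The median log2 fold change of these 10 was -0.04. Of all tested genes 9.43% were called higher and 5.58% lower without the block, and 16.2% and 15.9% with it. Of the 15 neuron markers, all were tested, 1 (Elavl4) rose and none fell without the block, with 5 lower and 1 higher with it, and the median log2 fold change was -0.19. The summed level of these 15 lay between 1127 and 1602 CPM with DMSO and between 1022 and 1463 CPM with ZJU-37. Mature oligodendrocyte markers had a median log2 fold change of -1.0, with 4 of 11 lower (8 with the block) and a summed level of 13000 to 24650 CPM with DMSO and 5106 to 10260 CPM with ZJU-37. Of 9 tested astrocyte markers 1 rose and 1 fell, with 1 higher and 5 lower with the block. Of 11 microglia and 6 tested vascular or fibroblast markers none was called without the block (edgeR), with 5 and 1 lower with it, and 0 of 11 and 0 of 6 higher. The astrocyte sums were 1068 to 1707 CPM with DMSO and 933 to 1394 CPM with ZJU-37, and the vascular and fibroblast sums 52.8 to 93.8 and 27.3 to 71.5 CPM, with Cldn5 at 0 counts in all 6 libraries. In such bulk RNA, fewer cells of a type and less RNA per cell cannot be told apart, and the part of these cells in the channel results was not tested.

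Genes that act with the channels were followed through 5 lists of related genes. Of the channel partners 22 of 23 were found and 19 tested, of which 2 rose and 1 fell (5 and 3 with the block). Fgf12, an intracellular FGF homologous factor that binds the sodium channel tail, rose from 16.3 ± 3.40 to 25.7 ± 1.5 CPM, and Stac2, which binds L-type calcium channels, from 5.12 ± 0.533 to 9.38 ± 1.62 CPM (SD, n = 3 libraries each, adjusted p = 0.0355 and 0.0189, edgeR). Ank3, the gene of ankyrin G, which anchors sodium channels in the membrane, fell from 114 ± 33.1 to 51.8 ± 7.00 CPM (SD, n = 3 libraries each, log2 fold change -1.14, adjusted p = 0.0156, edgeR).

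Among 8 tested genes of other sodium entry channels (10 of 11 found), 1 rose and 1 fell (2 higher and 1 lower with the block). The genes called without the block both belong to the acid-sensing ion channels, which open at low extracellular pH. Asic4 rose from 11.8 ± 1.39 to 25.1 ± 2.28 CPM and Asic1 fell from 75.6 ± 4.40 to 44.9 ± 8.33 CPM (SD, n = 3 libraries each, adjusted p = 0.00181 and 0.0109, edgeR).

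Of 15 tested genes for calcium stores and store-operated entry (16 of 17 found), none rose and 4 fell (6 with the block), and the median log2 fold change was -0.21. Itpr2, an inositol trisphosphate receptor that releases stored calcium, fell from 181 ± 16.9 to 94.4 ± 5.05 CPM, and Stim1, the store calcium sensor, from 71.1 ± 0.567 to 48.3 ± 6.31 CPM (SD, n = 3 libraries each, adjusted p = 8.03e-04 and 0.0114, edgeR). The scaffold genes Homer1 and Homer3 fell by 0.68 and 0.36 on the log2 scale (adjusted p = 0.0132 and 0.0227, edgeR). The background for these lists is the 9.43% of all tested genes called higher and 5.58% called lower, or 16.2% and 15.9% with the block.

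Of 17 genes for calcium and sodium extrusion, all tested, 4 rose and none fell without the block, whereas 5 were higher and 5 lower with it. Atp2b4, a plasma membrane calcium pump, rose from 9.41 ± 1.07 to 25.6 ± 2.28 CPM and Slc8a3, a sodium-calcium exchanger, from 17.2 ± 0.569 to 31.2 ± 4.39 CPM (SD, n = 3 libraries each, adjusted p = 5.97e-04 and 0.00367, edgeR). Atp2b1, another calcium pump gene, rose by 0.31 on the log2 scale (adjusted p = 0.0267, edgeR).

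Among 22 calcium effector genes, all tested, 2 rose and none fell (4 higher and 2 lower with the block). These were Camk2b, a subunit of calmodulin-dependent kinase II, with 113 ± 16.6 and 228 ± 4.61 CPM, and Camk1g, of calmodulin-dependent kinase I, with 6.65 ± 1.2 and 17.3 ± 2.44 CPM with DMSO and ZJU-37 (SD, n = 3 libraries each, adjusted p = 0.00156 and 0.00308, edgeR).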

How the data were processed

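Raw counts of 32883 genes in 6 libraries, made by the authors with featureCounts, were the deposited values used. The submitters' processing notes also name HISAT2 2.0.5, StringTie 1.3.3b and featureCounts 1.5.0, and the genome build is not given in the sources used here. FPKM values (fragments scaled to gene length and library size) were made by the authors and deposited beside the counts; family shares taken from them are equal to those from counts by construction, so they give no further check. The 5 columns of the authors' own comparison (group means, log2 fold change, p-values) were not used. NEBNext Ultra libraries were counted with no strand setting stated, so reads of overlapping genes on opposite strands could not be told apart.

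Genes were filtered with filterByExpr, scaled by TMM and tested with edgeR 4.0.16 (glmQLFit, robust, glmQLFTest; R 4.3.3). The threshold was an adjusted p-value of 0.05, and 14670 genes were tested. For pair differences 0.5 counts were added. An exact permutation test of 3 against 3 libraries cannot give less than 0.1 and was not used for calls. As a pairing check, each library's deviation from its group mean was correlated across genes with that of the other group's library of the same number (r = 0.37, 0.30 and 0.32) or another number (-0.25 to -0.02). Deviations within a group sum to 0 for each gene, so positive values for the same number force those for other numbers to be negative on balance. The numbers come from the sample titles, and the fit with the replicate block is given where it changes a call. No 2 libraries agreed within counting error (chi-square of at least 11.3 per degree of freedom). The scripts were tested on simulated data. The members and lists were chosen with earlier results of these data known. Full values are given for members called in either fit and for the most abundant member of each family, and of each list at most 4 called genes are named. Some genes are counted but not reported here by name or drawn. DESeq2 1.42.0, limma-voom (limma 3.58.1), other scalings and filters, and leaving out libraries were the alternatives.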

Additional observations from a re-analysis of the deposited data

How the results depend on the processing

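The count of 3 higher and 1 lower member held with limma-voom, DESeq2 size factors in edgeR, library size only, upper quartile scaling, no low-count filter and at least 10 counts in every library. DESeq2 gave 6 higher. The replicate block gave 12 higher and 3 lower, and changed no member's direction among the called genes. At an adjusted p-value under 0.01 no lower member remained (3 higher). With one library, or after seeing the data both libraries of one number, left out, the higher count ran from 0 to 6, the lower count from 0 to 1 and the median log2 fold change from 0.0668 to 0.29. The higher count was 6 without replicate 1, 1 without replicate 2 and 0 without replicate 3, where 2 libraries per group remained and 640 genes of all were called (edgeR). The 4 called genes kept their call in 59 of 72 values under the alternatives and lost it in 13, none reversed, and the 29 uncalled genes gained one in 20 of 521; Scn9a had no value at 10 counts in every library. Library size only left 23 genes above 0, against 21. Genes with at most 30 counts in a library (Scn4a, Scn9a and the 7 untested genes) are limited by depth.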
